A study of Mus musculus with 9 samples.

Results

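The miR-23a27a24-2 cluster and its paralogous cluster produce 5 guide-strand miRNAs, which are described here in preleukemic mouse blood cells with and without the terminal uridylyltransferases TUT4 and TUT7. They are miR-23a-3p, miR-27a-3p and miR-24-3p of the cluster, together with miR-27b-3p and miR-23b-3p of the paralogous cluster. These 5 mature miRNAs were chosen by name, and they are 5 of the 817 mature miRNAs in the count table. miR-27b-3p lost nearly all of a uridylated fraction that averaged 9.41% of its reads, and miR-24-3p lost one that averaged 3.67%. Uridylated miR-23a-3p and miR-27a-3p were rare in control cells and rarer or not found after Tut4/7 deletion. The abundance of the 5 miRNAs did not pass the test in either direction.

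Small RNA sequencing covered 9 libraries, 5 from Tut4/7 CTL cells and 4 from Tut4/7 cKO cells. The cKO cells carried floxed Tut4 and Tut7 alleles (Tut4 fl/fl, Tut7 fl/fl) with Vav-iCre, a Cre recombinase active in blood cells. CTL cells came from iCre-negative littermates, which the sample labels call WT. Cells of both groups were fetal liver cells enriched for c-Kit and transduced with Meis1 and Hoxa9 retroviruses, an agent the labels write as Hox9/Meis1. Both groups grew in IMDM with 10% FBS, 40 ng/mL Stem Cell Factor, 20 ng/mL IL-6 and 20 ng/mL IL-3. The labels give replicate numbers, and the study's methods describe replicates as coming from separate animals or embryos, so p-values measure the spread between such cultures. Small RNA reads give no direct check of Tut4 or Tut7 mRNA. The comparison asks whether TUT4/7 are needed for the abundance and for the 3′ uridylation of these miRNAs.

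miRNAs of a cluster are cut from a shared primary transcript, so their production is linked at transcription, whereas processing and decay act on each miRNA. A miRNA selects target mRNAs mainly through its seed, the bases near its 5′ end, and miRNAs with the same seed share many predicted targets. TUT4 and TUT7 add uridines to RNA 3′ ends, including those of mature miRNAs, and miR-27a has been studied for effects on fat storage and sterol handling. miR-23a, miR-27a and miR-24 are also known for roles in blood cell differentiation.

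The mature sequences are shown from RefSeq (GRCm38.p6), with bases 2 to 8 (the seed) in capitals, because the groups of the family follow from the seed and the measurement of uridylation follows from the last bases. Of the 5 miRNAs, 4 matched an entry of the RefSeq mature table.
mmu-miR-23a-3p: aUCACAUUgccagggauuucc
mmu-miR-27a-3p: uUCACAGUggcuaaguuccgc
mmu-miR-27b-3p: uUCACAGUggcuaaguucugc
mmu-miR-24-3p: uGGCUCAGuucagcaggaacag
miR-27a-3p and miR-27b-3p share the seed UCACAGU and differ only by C19T, counted from the 5′ end with miR-27a-3p first and written in DNA letters. miR-24-3p has the seed GGCUCAG and miR-23a-3p has UCACAUU, so the cluster yields miRNAs of separate seed families.

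In the GRCm39 mouse genome, the 3 miRNA genes of the cluster lie on the plus strand of chromosome 8 between 84935147 and 84935550, a span of 404 bp. No annotated gene other than miRNA genes contains their mature sequences. Mature miR-23a-3p maps to chr8:84935192-84935212, miR-27a-3p to chr8:84935356-84935376 and the Mir24-2 copy of miR-24-3p to chr8:84935504-84935525. The paralogous cluster lies on the plus strand of chromosome 13 between 63448298 and 63449089, a span of 792 bp inside the protein-coding gene Aopep. miR-23b-3p maps to an Aopep intron at chr13:63448343-63448363, and miR-27b-3p to chr13:63448574-63448594, which overlaps an exon of an Aopep transcript. The Mir24-1 copy of miR-24-3p lies at chr13:63449065-63449086, also overlapping an Aopep exon, and all of these positions lie opposite an intron of Fancc. Mature miR-24-3p is therefore a sum over both clusters, and its reads cannot be assigned to either. The genomic base after the mature end is A for miR-23a-3p, miR-23b-3p and miR-27b-3p, C for miR-27a-3p and G for both copies of miR-24-3p. No member is followed by a genomic T, so a T past the mature end is not encoded at these loci.

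The RefSeq hairpins of Mir27a and Mir27b are shown with the 3p mature sequence in capitals, because these miRNAs share a seed and differ at the 3′ side of the mature sequence, where uridylation was measured.
Mir27a: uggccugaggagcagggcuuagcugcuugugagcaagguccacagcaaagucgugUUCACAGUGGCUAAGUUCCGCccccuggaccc
Mir27b: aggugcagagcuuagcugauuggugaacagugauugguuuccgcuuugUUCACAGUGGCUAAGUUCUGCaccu

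Libraries held 175462 to 479342 reads assigned to miRNAs, 209702 to 316620 in CTL and 175462 to 479342 in cKO. Among blood miRNAs, miR-181a-5p lay between 34843 and 68812 CPM (reads of a miRNA scaled to a common library size) in all libraries, and miR-223-3p and miR-155-5p were also found in every library. miR-142a-3p, which defines blood cells, was low at 30.2 to 157 CPM. miR-142a-5p was lower still, at 0 to 14.0 CPM. The summed level of the 5 blood miRNAs was 43633 to 71806 CPM in CTL and 47218 to 74937 CPM in cKO. Most of this sum was miR-181a-5p in every library. The hepatocyte miRNA miR-122-5p was present at 482 to 1505 CPM and the epithelial miRNA miR-200c-3p at 348 to 1361 CPM. The erythroid miRNA miR-451a stayed at or below 6.83 CPM. Summed lymphoid and endothelial markers reached 279.8 and 249 CPM, and fibroblast and smooth muscle, muscle and neural markers reached at most 27.3 CPM. The groups overlapped for every one of these markers. miR-10a-5p, encoded beside Hox genes, ranged from 562 to 42657 CPM, and was highest in CTL replicate 2 and cKO replicate 4. These libraries recur among the extreme values below, and the part of the miR-10a-5p difference in those results was not tested.

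Deletion of Tut4/7 left the abundance of the miR-23/27/24 miRNAs within the spread between libraries. At an adjusted p under 0.05 by edgeR's quasi-likelihood test, 0 of the 5 passed in either direction, where 0.0% of the 205 miRNAs tested were higher in cKO and 0.488% were lower. At an unadjusted p under 0.05, 15.1% of the 205 miRNAs passed, and 0 of the 5 members. In bulk RNA, fewer cells of a type and less RNA per cell cannot be told apart. The 5 miRNAs together took 4.43% ± 1.67 of miRNA reads in CTL (SD, n = 5) and 4.07% ± 2.82 in cKO (SD, n = 4).

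miR-27b-3p, which shares its seed with miR-27a-3p and is made from the chromosome 13 cluster, had the lowest estimate. Its TMM-scaled level in CTL was 21140, 14294, 10523, 15244 and 7399 CPM in replicates 1 to 5. In cKO it was 2977, 4809, 8017 and 21618 CPM in replicates 1 to 4. cKO replicates 1 and 2 were below every CTL library, whereas cKO replicate 4 was the highest of all 9, so the groups overlapped. The log2 fold change was −0.55 (SE 0.54, edgeR adjusted p = 0.686), and without cKO replicate 4 it was −1.49 with an adjusted p of 0.0638, which did not pass either.

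miR-27a-3p, the cluster member linked to lipid metabolism, moved little on average. Its CTL levels were 10791, 9812, 3900, 5991 and 2315 CPM in replicates 1 to 5. Its cKO levels were 5258, 4505, 6896 and 17574 CPM in replicates 1 to 4. The cKO values lay inside the CTL range except for replicate 4, and the log2 fold change was 0.38 (SE 0.53, edgeR adjusted p = 0.785).

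miR-24-3p, the most abundant of the 5 and the one with a seed of its own, gave the tightest estimate. It stood at 23283, 19767, 14437, 15341 and 11898 CPM in the CTL replicates in order. In cKO it stood at 10441, 18081, 19678 and 25546 CPM. The groups overlapped on both sides, with a log2 fold change of 0.12 (SE 0.29, edgeR adjusted p = 0.863).

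The 2 miR-23 miRNAs, which differ at 1 base of the mature sequence, also overlapped between groups. miR-23a-3p ranged from 1823 to 5060 CPM in CTL (median 3940) and from 2001 to 8093 CPM in cKO (median 2816). miR-23b-3p ranged from 323 to 1090 CPM in CTL and from 253 to 913 CPM in cKO. The log2 fold changes were 0.07 (SE 0.46, edgeR adjusted p = 0.944) and −0.35 (SE 0.45, edgeR adjusted p = 0.758). cKO replicate 4 held the highest cKO level of all 5 miRNAs and CTL replicate 5 the lowest CTL level, so the members shared their high and low libraries within a genotype. Without cKO replicate 4 the estimates for miR-23a-3p, miR-27a-3p and miR-24-3p turned negative, to −0.66, −0.35 and −0.19, and none passed the test.

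**Figure D1:**
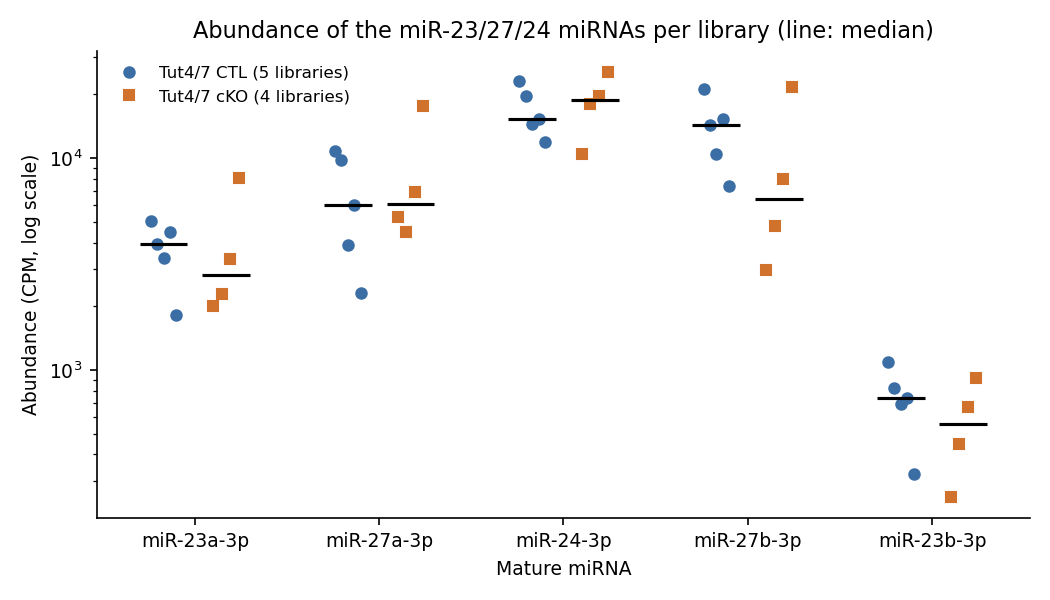
Abundance of the 5 miRNAs in each library, in TMM-scaled CPM on a log axis, with circles for the 5 Tut4/7 CTL libraries, squares for the 4 Tut4/7 cKO libraries and a line at each group's median. The groups overlap for all 5 miRNAs, and for miR-27b-3p the cKO squares run from 2977 to 21618 CPM.

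The passenger arms of the same hairpins, which are usually degraded after the guide strand is loaded, had fewer reads than their guide strands in most libraries. miR-27a-5p had 371 to 1027 reads a library and exceeded miR-27a-3p in CTL replicate 5 (798 against 616 reads). miR-23b-5p had 23 to 148 reads and exceeded miR-23b-3p in CTL replicate 5 (148 against 86) and cKO replicate 1 (50 against 37). Of the 6 arms listed, 5 had enough reads to be tested for abundance and 0 passed. Their log2 fold changes ran from −0.61 for miR-27b-5p (SE 0.30, edgeR adjusted p = 0.343) to 0.33 for miR-23a-5p (SE 0.35, edgeR adjusted p = 0.708). miR-24-1-5p, the only arm specific to the chromosome 13 copy of miR-24, had at most 4 reads a library. miR-24-2-5p, its counterpart from chromosome 8, had 12 to 127 reads, with a log2 fold change of −0.53 (SE 0.38, edgeR adjusted p = 0.583).

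The order of the 5 guide strands was the same in most libraries. miR-24-3p took 1.80% of miRNA reads on average over the 9 libraries, miR-27b-3p 1.23%, miR-27a-3p 0.772%, miR-23a-3p 0.397% and miR-23b-3p 0.0684%. By an exact paired permutation test (two-sided, sign flips over 9 libraries), miR-24-3p exceeded miR-27b-3p, miR-27a-3p exceeded miR-23a-3p and miR-23a-3p exceeded miR-23b-3p in 9 of 9 libraries, each with p = 0.00391, the smallest this test can give. miR-27b-3p exceeded miR-27a-3p in 8 of 9 libraries (exact p = 0.0469), and cKO replicate 1 was the exception. That order was not beyond the spread when reads shared by several mature miRNAs were left out (exact p = 0.0508), nor when any of 8 of the 9 libraries was left out (exact p 0.0547 to 0.0938), cKO replicate 1 being the other. Read numbers of different miRNAs also carry differences in adapter ligation and mapping between sequences, so these shares compare reads and not molecules.

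Ratios within a library need no scaling between libraries and were compared for 5 pairs. The ratio of miR-27a-3p to miR-27b-3p separated the genotypes. In CTL it was 0.510, 0.686, 0.371, 0.393 and 0.313 in replicates 1 to 5. In cKO it was 1.77, 0.937, 0.860 and 0.813 in replicates 1 to 4. Every cKO library was above every CTL library, and the mean log2 ratio went from −1.19 ± 0.44 (SD, n = 5) to 0.05 ± 0.52 (SD, n = 4), a difference of 1.25. The exact permutation test gave p = 0.0159, the smallest that 5 against 4 libraries allow, and 0.0794 after Benjamini-Hochberg adjustment over the 5 ratios, which missed the threshold. Reads that reached the mature 3′ end gave a difference of 0.27 (exact permutation p = 0.333), so the separation was seen with the shortened reads included. Few miR-27a-3p reads reached that end, 30 to 71 in a CTL library and 7 to 65 in a cKO library.

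The other ratios overlapped between genotypes. Within the chromosome 8 cluster, the mean log2 ratio of miR-27a-3p to miR-23a-3p was 0.68 ± 0.49 in CTL (SD, n = 5) and 1.13 ± 0.18 in cKO (SD, n = 4), with an exact permutation p of 0.159. With reads at the mature end the direction of that difference turned, from 0.46 to −0.80 (exact permutation p = 0.0476, adjusted 0.119). This value rests on the same few miR-27a-3p reads at the mature end. The mean log2 ratio of miR-24-3p to miR-23a-3p was 2.22 ± 0.34 and 2.39 ± 0.55, with an exact permutation p of 0.571. For the paralogous cluster, the mean log2 ratio of miR-27b-3p to miR-23b-3p was 4.24 ± 0.22 in CTL (SD, n = 5) and 3.78 ± 0.53 in cKO (SD, n = 4), with an exact permutation p of 0.127. In that ratio 3 cKO libraries lay between 3.42 and 3.58, below every CTL library, and cKO replicate 4 at 4.57 was above every CTL library. The ratio of the 2 miR-23 paralogs differed by 0.33 (exact permutation p = 0.190).

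**Figure D2:**
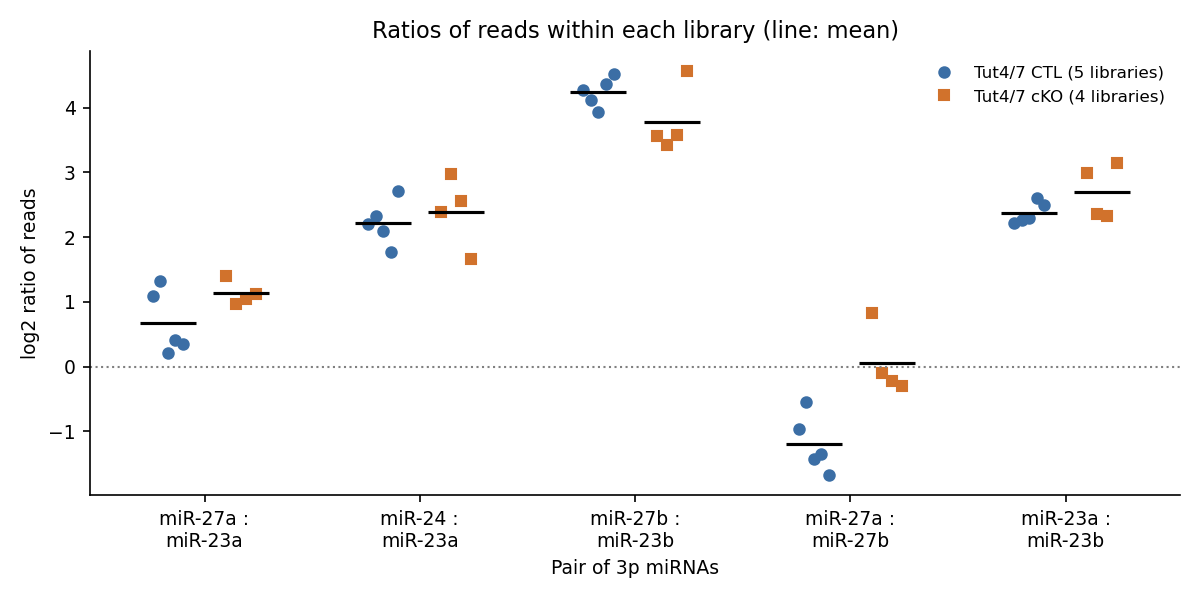
log2 ratio of the reads of 2 miRNAs within each library for 5 pairs, with circles for 5 Tut4/7 CTL and squares for 4 Tut4/7 cKO libraries and a line at each group mean. For miR-27a-3p to miR-27b-3p the CTL points lie between −1.68 and −0.54 and the cKO points between −0.30 and 0.82, without overlap.

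Uridylation of 4 of the 5 members fell in the absence of TUT4/7. A read was counted as uridylated when it carried 1 to 3 Ts past the mature 3′ end, and the odds of uridylated to other reads were compared within each library. Of the 5 members, 4 passed the test and were lower in cKO, against 59.4% of the 143 miRNAs tested, and 0.0% were higher. The 4 are miR-27b-3p, miR-24-3p, miR-27a-3p and miR-23a-3p, whereas miR-23b-3p did not pass. Entry to the test needed a uridylated read in 3 or more CTL libraries and set no condition on cKO libraries. This favours lower over higher calls, for the members and for all miRNAs tested. With entry by 3 or more uridylated reads over all 9 libraries, the same 4 were lower (edgeR adjusted p 3.78e-05 to 0.00689). miR-23b-3p again did not pass (edgeR adjusted p = 0.240). In each of these 4 every CTL library was above every cKO library, which held for 34.3% of all miRNAs tested. For miR-27a-3p the depth cannot resolve this separation. Its cKO libraries held 0 uridylated reads, which allows shares up to 0.0429% to 0.390%, all above its lowest CTL share of 0.0384%. The median log2 change in odds was −4.78 over the 5 members and −2.84 over all 143. Because most tested miRNAs fell, passing the test was not particular to this family.

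The read forms on which the result rests are shown for miR-27b-3p, in DNA letters as sequenced, with the added Ts in capitals: the mature end, then 1 and 2 added Ts.
miR-27b-3p mature end: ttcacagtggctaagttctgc
miR-27b-3p with 1 added T: ttcacagtggctaagttctgcT
miR-27b-3p with 2 added Ts: ttcacagtggctaagttctgcTT
In CTL these uridylated forms and those with 3 Ts made up 10.9%, 1.11%, 9.14%, 9.77% and 16.1% of miR-27b-3p reads in replicates 1 to 5. In cKO they made up 0.917%, 0.395%, 0.256% and 0.140% in replicates 1 to 4. The groups did not overlap, although CTL replicate 2 came near to cKO replicate 1, and their 95% Wilson intervals of 0.820% to 1.49% and 0.357% to 2.33% overlapped. The mean was 9.41% ± 5.39 in CTL (SD, n = 5) and 0.427% ± 0.343 in cKO (SD, n = 4). The log2 change in odds was −4.78 (SE 0.82, edgeR adjusted p = 0.000128). Over pooled reads, 1631 of 18444 were uridylated in CTL and 32 of 14314 in cKO, a share 39.6-fold lower with an exact interval of 27.9 to 58.0. cKO replicate 4 gave 8596 of these 14314 cKO reads, and without it the share was 25.3-fold lower (exact interval 16.3 to 41.5). Such intervals cover counting error only, since reads amplified by PCR without molecular identifiers are not independent molecules.

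miR-24-3p kept a smaller uridylated fraction in CTL and lost it as fully. The unmodified and monouridylated forms are shown because nearly all of its tails were of 1 T.
miR-24-3p mature end: tggctcagttcagcaggaacag
miR-24-3p with 1 added T: tggctcagttcagcaggaacagT
The uridylated share was 3.87%, 0.362%, 3.77%, 5.19% and 5.18% in CTL replicates 1 to 5. It was 0.196%, 0.0751%, 0.0580% and 0.0591% in cKO replicates 1 to 4. Every cKO library lay below every CTL library, and CTL replicate 2 was again the lowest control. The means were 3.67% ± 1.97 (SD, n = 5) and 0.0971% ± 0.0665 (SD, n = 4), and the log2 change in odds was −5.29 (SE 0.80, edgeR adjusted p = 6.92e-05). Pooled, 798 of 22933 reads were uridylated in CTL and 19 of 26962 in cKO, 49.4-fold lower with an exact interval of 31.4 to 82.5. Without CTL replicate 2 the log2 changes were −5.93 for miR-24-3p and −5.52 for miR-27b-3p.

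miR-23a-3p was uridylated in few reads. There were 6, 3, 3, 6 and 4 uridylated reads in CTL replicates 1 to 5 and 0, 0, 1 and 3 in cKO replicates 1 to 4. As shares of its reads these were 0.262% to 0.825% in CTL and 0% to 0.0932% in cKO, without overlap. With 0 reads, the depth of cKO replicates 1 and 2 allows a share of up to 1.02% and 0.355%, and the limit of cKO replicate 1 lies above the CTL mean. The mean was 0.474% ± 0.227 in CTL (SD, n = 5) and 0.0404% ± 0.0477 in cKO (SD, n = 4), and the log2 change in odds was −2.63 (SE 0.74, edgeR adjusted p = 0.00683).

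miR-27a-3p had fewer uridylated reads still, 4, 1, 2, 4 and 2 in the CTL replicates in order and 0 in each cKO library. Its share ran from 0.0384% to 0.325% in the CTL libraries. The cKO depth allows up to 0.390%, 0.181%, 0.0993% and 0.0429% in replicates 1 to 4, or 0.0241% over the 12437 pooled reads. cKO replicate 4 held 6988 of them, and without it the pooled limit is 0.0551%. Only in cKO replicates 3 and 4 did this limit lie below the CTL median of 0.166%. The fitted change passed the test with an edgeR adjusted p of 0.00178, and its size depends on the prior count because all cKO libraries were at 0.

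miR-23b-3p, the least abundant member, had 0, 0, 2, 2 and 1 uridylated reads in CTL and 0, 0, 0 and 1 in cKO. The groups overlapped, and the log2 change in odds was −1.64 (SE 1.13, edgeR adjusted p = 0.224). Pooled shares were 5 of 994 reads in CTL and 1 of 858 in cKO, a ratio of 4.32 with an exact interval of 0.483 to 204. This interval holds both an unchanged share and the 6.28-fold lower pooled share of miR-23a-3p, so the p above does not show that miR-23b-3p kept its uridylation.

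**Figure D3:**
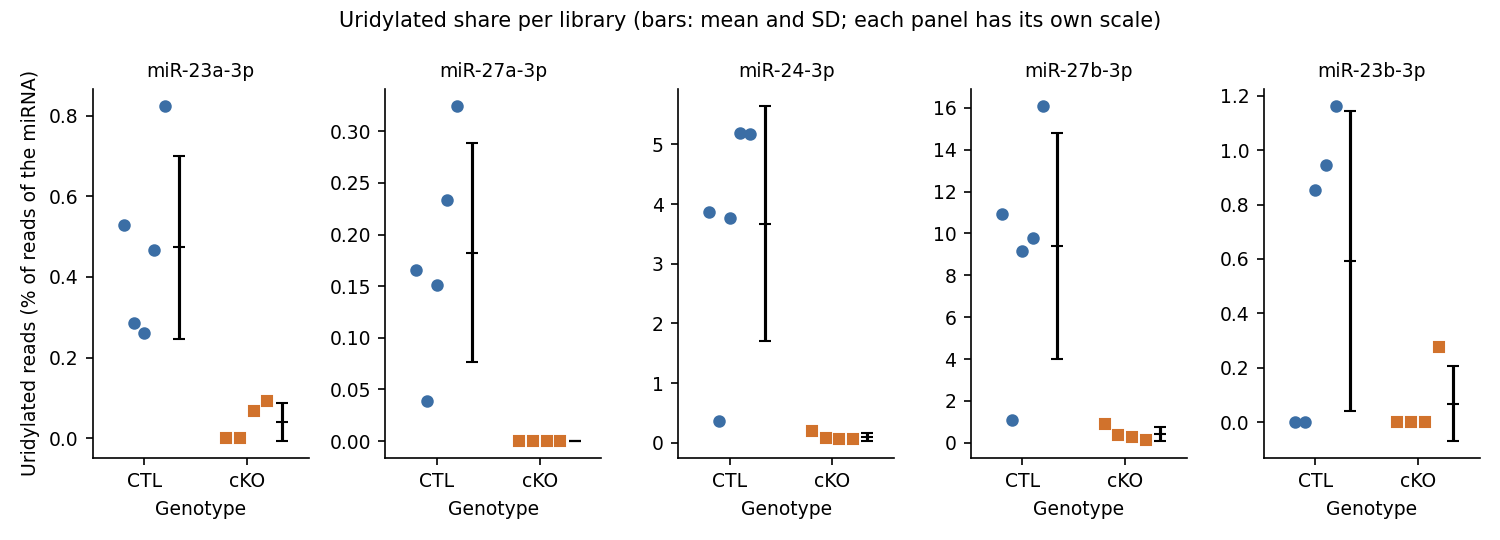
Uridylated reads as a percentage of the reads of each miRNA, with points for libraries and a bar for the mean and SD of each genotype (5 CTL, 4 cKO), each panel on its own scale. CTL replicate 2 is the low control for miR-27b-3p (1.11%) and miR-24-3p (0.362%), and all 4 cKO libraries are at 0 for miR-27a-3p.

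In control cells the members differed widely in their uridylated share. miR-27b-3p ranked 56 of 143 tested miRNAs, between miR-146b-5p at 9.44% and miR-326-3p at 9.41%. miR-24-3p ranked 90, between miR-146a-5p at 3.82% and miR-3057-5p at 3.63%. miR-23b-3p at 0.592%, miR-23a-3p at 0.474% and miR-27a-3p at 0.182% ranked 136, 139 and 142, among the least uridylated miRNAs tested. The neighbours of miR-27a-3p were miR-29a-3p at 0.386% and miR-148a-3p at 0.149%. Over 5 CTL libraries an exact paired sign-flip permutation test cannot go below p = 0.0625 (two-sided), and it gave that value for miR-27b-3p over miR-24-3p, miR-24-3p over miR-23b-3p and miR-23a-3p over miR-27a-3p, each higher in 5 of 5 libraries. miR-23b-3p exceeded miR-23a-3p in 3 of 5 (exact p = 0.625) and the order of these paralogs was not beyond their spread.

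Tail length separated miR-27b-3p from miR-24-3p. In CTL, 1092 miR-27b-3p reads carried 1 added T, 528 carried 2 and 11 carried 3. Tails of 2 or 3 Ts were thus 33.0% of its uridylated reads when pooled, and 33.0% ± 1.83 over libraries (SD, n = 5), from 30.3% to 35.0%. CTL replicate 2, low in total uridylation, lay within this range with 13 reads of 2 Ts and 1 of 3 Ts among 42. For miR-24-3p, 780 reads carried 1 T, 18 carried 2 and 0 carried 3, so that 2.26% of its uridylated reads had more than 1 T. Among 71 miRNAs with at least 50 uridylated CTL reads, miR-27b-3p ranked 5 for the share of longer tails and miR-24-3p ranked 50, with a median of 5.77%. In cKO the 32 uridylated miR-27b-3p reads comprised 27 with 1 T and 5 with 2 Ts, and all 19 of miR-24-3p had 1 T. The difference in tail length between genotypes was not tested, as the cKO libraries held 4 to 12 uridylated miR-27b-3p reads each. In absolute share, reads with 1 T were 6.28% ± 3.51 of miR-27b-3p in CTL (SD, n = 5) and 0.332% ± 0.246 in cKO (SD, n = 4), without overlap. Reads with 2 Ts were 3.06% ± 1.84 (SD, n = 5) and 0.0956% ± 0.0996 (SD, n = 4), also without overlap. The reference carried 3 added Ts, so longer tails could not be counted.

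**Figure D4:**
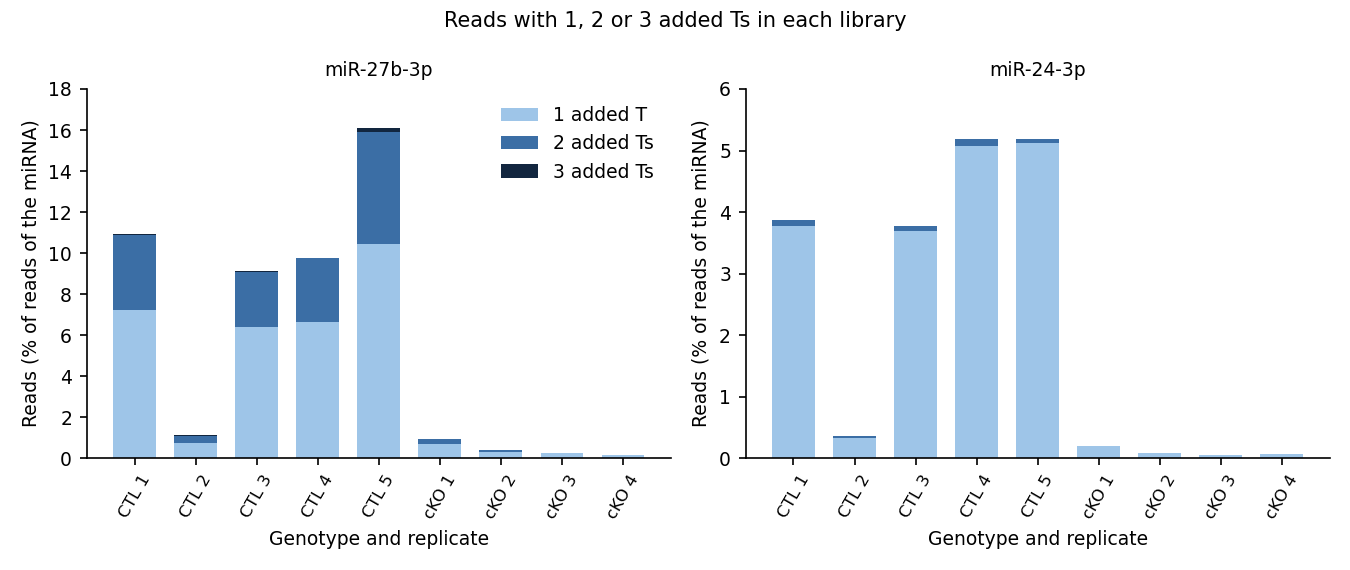
Reads with 1, 2 or 3 added Ts (light to dark, stacked from 0) as a percentage of the reads of miR-27b-3p (left) and miR-24-3p (right) in each of the 9 libraries, with separate scales. Reads with 2 Ts reach 5.43% of miR-27b-3p in CTL replicate 5 and at most 0.114% of miR-24-3p.

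The 3′ ends of the members bear on what could be counted as uridylated. miR-27a-3p and miR-27b-3p differ at position 19, and their reads ended at different places. The shortened form of miR-27a-3p is shown with its mature and monouridylated forms, because it made up most of the reads.
miR-27a-3p ending 1 base early: ttcacagtggctaagttccg
miR-27a-3p mature end: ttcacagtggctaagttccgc
miR-27a-3p with 1 added T: ttcacagtggctaagttccgcT
The form that ends 1 base early was 92.7% ± 2.53 of miR-27a-3p reads in CTL (SD, n = 5) and 95.1% ± 1.14 in cKO (SD, n = 4). Reads at the mature end without added Ts were 3.02% ± 1.40 and 1.23% ± 0.479. By contrast, 63.5% ± 3.81 of miR-27b-3p reads in CTL and 58.3% ± 6.55 in cKO stopped at the mature end.

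The base that follows the shortened miR-27a-3p in the reference is C, and mapping allowed no mismatch. A T added to the shortened form would not match the extended reference and was not in these counts. The uridylated share of miR-27a-3p thus rests on the few reads that reached the mature end. The same limit applies to reads of the other members that end 1 or 2 bases early. The next base is C for miR-23a-3p, miR-27b-3p and miR-23b-3p reads ending 1 base early (31.1%, 19.5% and 10.4% of CTL reads). For miR-24-3p it is G after reads ending 1 base early (14.1%) and A after those ending 2 bases early (39.2%). Some shorter reads are followed by T, such as miR-23a-3p and miR-27b-3p reads ending 3 bases early (1.88% and 0.593% of CTL reads). A T added there matches the reference and is counted as a longer read without added Ts. Over the miR-27a-3p reads at the mature end alone, 13 of 233 were uridylated in CTL and 0 of 139 in cKO, where 0 of 139 allows up to 2.16%. The cKO libraries held 7, 32, 35 and 65 such reads in replicates 1 to 4. Without cKO replicate 4 the cKO count was 0 of 74, which allows up to 4.05%. The exact interval of the pooled ratio then started at 0.968, so it holds an unchanged share. By library the CTL share was 5.63%, 3.33%, 4.44%, 7.41% and 6.06% in replicates 1 to 5. With the same denominator, miR-27b-3p stood at 14.9%, 1.79%, 11.6%, 13.3% and 21.0%. miR-27b-3p was above miR-27a-3p in 4 of 5 CTL libraries, and CTL replicate 2 was the exception. The means over CTL libraries were 12.5% ± 6.98 for miR-27b-3p, 7.86% ± 4.17 for miR-24-3p, 5.38% ± 1.56 for miR-27a-3p, 0.841% ± 0.366 for miR-23a-3p and 0.701% ± 0.647 for miR-23b-3p (SD, n = 5). On this scale miR-27a-3p no longer ranked below the miR-23 miRNAs. The genotype effect stayed past the threshold with this denominator, which was chosen after the values were seen: the log2 change in odds was −4.48 for miR-27b-3p (edgeR adjusted p = 0.000231), −5.20 for miR-24-3p (edgeR adjusted p = 0.000137), −2.44 for miR-23a-3p (edgeR adjusted p = 0.0132) and a fitted −3.86 for miR-27a-3p (edgeR adjusted p = 0.00732).

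A further share of reads could not be told apart between paralogs. Reads that stop before position 19 are the same for both miR-27 miRNAs, as are short reads of the miR-23 pair. Within a library, shared reads with a given end were listed under only 1 of the paralogs, and this paralog changed between libraries. In CTL replicate 1, reads ending 3 bases early numbered 49 for miR-27a-3p and 0 for miR-27b-3p, and in CTL replicate 2 they numbered 0 and 55. Shared reads can therefore shift the levels and ratios of paralogs within a library. Such reads were 0.564% of miR-27a-3p, 1.13% of miR-27b-3p, 2.75% of miR-23a-3p and 3.67% of miR-23b-3p, with up to 18.4% of miR-23b-3p in a library. miR-24-3p shared 0 reads. The miR-27b-3p read that stops at base 19 equals the shared shorter read with a T, so those could not be separated from a uridylated miR-27a-3p fragment:
miR-27b-3p ending at base 19: ttcacagtggctaagttct

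**Figure D5:**
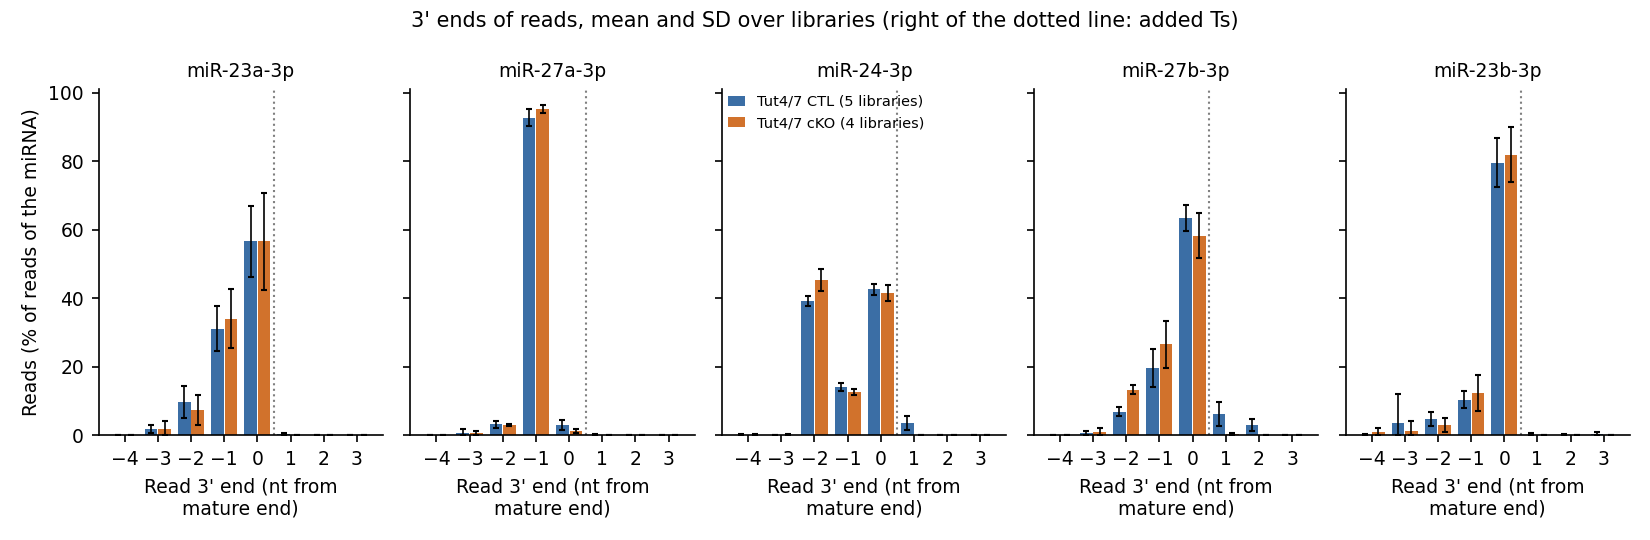
Position of the 3′ end of reads from the mature end (0), in nucleotides, for each miRNA, as the mean percentage of its reads with SD over 5 Tut4/7 CTL and 4 Tut4/7 cKO libraries; positions right of the dotted line are added Ts. miR-27a-3p has 92.7% (CTL) and 95.1% (cKO) of its reads at −1, whereas miR-24-3p has peaks at −2 and 0.

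Reads that end before the mature 3′ end did not change past the threshold in any of the 5 members. Of the 190 miRNAs tested, 4.74% had higher odds of truncated reads in cKO and 0.0% lower odds. The nearest were the miR-27 miRNAs. Truncated reads were 26.5%, 38.2%, 21.0%, 26.4% and 23.5% of miR-27b-3p in CTL replicates 1 to 5. They were 36.9%, 39.4%, 37.6% and 51.3% in cKO replicates 1 to 4. CTL replicate 2, the control with the lowest uridylation, was the only one to overlap the cKO range. The log2 change in odds was 0.94 (SE 0.28, edgeR adjusted p = 0.0868), and without CTL replicate 2 it was 1.13 (edgeR adjusted p = 0.0134).

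For miR-27a-3p the truncated share was 96.8% ± 1.5 in CTL (SD, n = 5) and 98.8% ± 0.479 in cKO (SD, n = 4), with a log2 change in odds of 1.3 (SE 0.42, edgeR adjusted p = 0.116). Without CTL replicate 2 this too passed, at 1.62 (edgeR adjusted p = 0.00991). A uridylated read cannot also be truncated, so the loss of uridylated reads raises the truncated share by construction. With uridylated reads left out, the changes were 0.76 for miR-27b-3p (edgeR adjusted p = 0.213) and 1.22 for miR-27a-3p (edgeR adjusted p = 0.216). Truncated reads with an added T that did not match the reference were not counted in either genotype, so this comparison does not cover them.

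miR-24-3p had 2 main ends, at the mature end and 2 bases before it. The shorter form was 37.0% to 41.3% of its reads in CTL and 41.8% to 49.4% in cKO, so the groups did not overlap.
miR-24-3p ending 2 bases early: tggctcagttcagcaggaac
All truncated miR-24-3p reads together were 53.7% ± 1.75 in CTL (SD, n = 5) and 58.4% ± 2.44 in cKO (SD, n = 4), again without overlap, which held for 7.37% of the 190 miRNAs tested. The log2 change in odds was 0.27 (SE 0.15, edgeR adjusted p = 0.396), and 0.16 with uridylated reads left out (edgeR adjusted p = 0.726). miR-27b-3p ending 2 bases early also separated the groups, at 5.73% to 8.54% in CTL and 12.1% to 15.3% in cKO. Groups separated in this way at this end in 4.74% of the 190 miRNAs. Counting as truncated only reads that end at least 2 bases early gave 1.11 for miR-27b-3p (SE 0.24, edgeR adjusted p = 0.0586) and 0.36 for miR-24-3p (edgeR adjusted p = 0.545), both short of the threshold. The miR-23 miRNAs moved least, with 0.02 for miR-23a-3p (SE 0.43, edgeR adjusted p = 0.989) and −0.25 for miR-23b-3p (SE 0.45, edgeR adjusted p = 0.849).

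Across libraries the levels of the members moved together. Over the 9 libraries, Pearson's r of log2 CPM between members ran from 0.63 for miR-27b-3p with miR-27a-3p to 0.91 for miR-23b-3p with miR-27b-3p, as a description of libraries that share scaling and depth. Within the chromosome 8 cluster, r was 0.87 for miR-27a-3p with miR-23a-3p. Among 200 other miRNAs, the most alike were miR-29a-3p for miR-23a-3p (r = 0.93), miR-140-3p for miR-27a-3p (r = 0.93) and for miR-24-3p (r = 0.92), miR-532-5p for miR-27b-3p (r = 0.96) and miR-26b-5p for miR-23b-3p (r = 0.96). The next were miR-140-3p for miR-23a-3p (r = 0.89) and for miR-23b-3p (r = 0.87), miR-29a-3p for miR-27a-3p (r = 0.91) and for miR-24-3p (r = 0.81), and miR-22-3p for miR-27b-3p (r = 0.95).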

How the data were processed

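Small RNAs of 15 to 40 nt from 1 µg of total RNA were made into libraries with the NEBNext kit and 16 PCR cycles. The authors trimmed adapters (cutadapt 5.0), mapped reads without mismatches (Bowtie 1.3.1) to miRBase mature sequences extended by 3 Ts, counted reads past the mature end as uridylated and compared counts with DESeq2 1.42.1, per the labels and the study's methods. The miRBase release is not given in the sources used here. The deposited values are raw counts of reads per miRNA and, for each library, counts per read sequence of 16 to 28 nt. The sums of the read sequences equalled the count table in all libraries (0 differences), and 0 columns belonged to no sample. Authors' comparisons were not used.

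Counts were tested with edgeR 4.0.16 in R 4.3.3 (TMM, quasi-likelihood, genotype only, 5 CTL against 4 cKO, Benjamini-Hochberg over all miRNAs tested, threshold 0.05). Abundance was tested where 4 or more libraries held 10 or more reads. Uridylated and truncated odds were fitted on counts of both read classes with a term per library, where 5 or more libraries held 10 or more reads and 3 or more libraries (CTL for uridylated) held reads of that class. Standard errors were the log2 change divided by the root of the F statistic. Ratios and orders used exact permutation tests (SciPy 1.17.1). Limits for 0 reads were 3 reads over the total, and intervals were 95% Wilson or, for pooled ratios, exact. Scripts were tested on simulated data. Mature sequences were matched to GRCm39, both strands.

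The text names the 5 members, the 6 passenger arms, for each member the 2 miRNAs with the highest Pearson r and the neighbours in uridylated share. Other exceptions are named as chosen after their values were seen. The members, lists and marker miRNAs were chosen with earlier results of these data known. Alternatives covered scaling, low-count filters, DESeq2 1.42.0, read definitions, a replicate block and leaving out each library.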

Additional observations from a re-analysis of the deposited data

Results flagged for a closer look

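Values of groups of 4 or 5 libraries were checked for a library that stood apart from the others by Dixon's criterion. Of 39 groups checked, 4 held such a library, where chance gives about 1 in 20, and all 4 were in cKO. The uridylated share of miR-24-3p was 0.196% in cKO replicate 1 (3 reads), and 0.0580% to 0.0751% in the other cKO libraries. cKO replicate 4 stood apart in the other three. Its truncated share of miR-27b-3p was 51.3%, against 36.9% to 39.4%. Its uridylated share of miR-23b-3p was 0.275%, which is 1 read, against 0 in the others. Its log2 ratio of miR-27b-3p to miR-23b-3p was 4.57, against 3.42 to 3.58. cKO replicate 4 was also the library with the highest level of all 5 members among cKO libraries and with a miR-10a-5p level of 28179 CPM. The part of the latter in these values was not tested.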

How the results depend on the processing

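The lower uridylated odds of miR-27b-3p, miR-24-3p, miR-27a-3p and miR-23a-3p passed the test in each of 17 alternatives, and miR-23b-3p passed in 0 of 17 (adjusted p 0.100 to 0.420). Abundance passed for 0 of the 5 members in each of 16 alternatives. The denominators restricted to reads at the mature end (uridylated) and without uridylated reads (truncated) were added after seeing the data. The cause of the changes below was not tested.

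Abundance estimates near 0 turned sign. miR-23a-3p gave −0.0039 by total reads, −0.085 with non-uridylated reads and −0.041 with reads of 1 mature miRNA. miR-23b-5p gave −0.020 by total reads and −0.068 without a filter. The log2 ratio difference of miR-27a-3p to miR-23a-3p was −0.80 with reads at the mature end (exact permutation p = 0.0476, adjusted 0.119), and miR-27b-3p over miR-27a-3p was 0.64 with unshared reads. Truncation by at least 2 bases gave −0.47 for miR-23a-3p and −0.15 for miR-27a-3p. Counts of miRNAs called in abundance were 10 higher and 8 lower without a filter, 6 and 5 with DESeq2, and 0 lower with non-uridylated reads. In uridylation, 1 was higher when uridylated reads were tested alone, and 48 were lower with a minimum of 200 reads. Truncation gave 5 higher with that minimum, 3 with a quasi-binomial model, 2 without uridylated reads, and 0 higher and 1 lower for at least 2 bases.

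With the replicate number as a block, the log2 changes in abundance were −0.44 for miR-23a-3p, −0.071 for miR-27a-3p and −0.13 for miR-24-3p, truncation was −0.057 for miR-23a-3p, 0 miRNAs were lower in abundance and 3 higher in truncation. The numbers did not pair the samples (correlations of same-numbered libraries −0.11, −0.20, 0.43 and 0.08).

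Leaving out each library gave −0.66 to 0.29 for miR-23a-3p abundance, −0.35 to 0.64 for miR-27a-3p, −0.19 to 0.32 for miR-24-3p and −0.18 to 0.68 for miR-23b-5p. Ranges were −0.021 to 0.42 for the log2 ratio of miR-24-3p to miR-23a-3p, 0.51 to 0.82 for miR-27b-3p over miR-27a-3p, and −0.00037 to 0.28 percentage points for miR-23b-3p over miR-23a-3p. Truncation ran from −0.39 to 0.25 for miR-23a-3p, from 1.08 to 1.62 for miR-27a-3p and from 0.75 to 1.13 for miR-27b-3p. Calls ran from 0 to 1 in each direction for abundance, from 0 to 1 higher and 61 to 100 lower for uridylation, and from 2 to 11 higher for truncation.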

Other observations

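The passenger arms miR-23a-5p and miR-23b-5p were among the 9 miRNAs with more truncated reads in cKO, and are named here after their values were seen. Reads at the mature end of miR-23a-5p were 32.8% ± 7.05 in CTL (SD, n = 5; 59 of 181 reads) and 14.0% ± 4.01 in cKO (SD, n = 4; 28 of 203 reads). For miR-23b-5p they were 34.4% ± 4.36 (SD, n = 5; 101 of 306 reads) and 12.5% ± 7.47 (SD, n = 4; 37 of 294 reads). Every CTL library was above every cKO library for both, and 7.37% of the 190 miRNAs tested had truncated shares separated in the same way. The log2 changes in truncated odds were 1.57 (SE 0.37, edgeR adjusted p = 0.0408) and 1.92 (SE 0.44, edgeR adjusted p = 0.0408). The other arms tested did not pass, with −0.56 for miR-27a-5p (SE 0.23, edgeR adjusted p = 0.248), −0.32 for miR-24-2-5p (SE 0.54, edgeR adjusted p = 0.834) and 2.66 for miR-27b-5p (SE 1.16, edgeR adjusted p = 0.250). The RefSeq mature forms are shown because both end in Us, given in capitals.
mmu-miR-23a-5p: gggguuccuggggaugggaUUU
mmu-miR-23b-5p: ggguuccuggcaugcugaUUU
A U added to a read that stops within this run cannot be told apart from an encoded U, so these reads were not counted as uridylated. The calls depended on the setting: miR-23a-5p passed in 3 of 14 alternatives and miR-23b-5p in 4 of 14, with adjusted p from 0.0127 to 0.742 and from 0.0309 to 0.976. Leaving out CTL replicate 1, 3, 4 or 5 or cKO replicate 3 or 4 ended both calls, cKO replicate 1 that of miR-23a-5p and cKO replicate 2 that of miR-23b-5p.

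A small set of miR-27b-3p reads started after the first mature base. In CTL, 38 of 49 such reads were uridylated (77.6%), against 8.66% of reads that started at the first base, and in cKO 1 of 8 was uridylated. Among late-start CTL reads of the other members, 2 of 4 of miR-24-3p and 1 of 1 of miR-27a-3p were uridylated. For miR-23a-3p and miR-23b-3p it was 0 of 26 and 0 of 8. Over all 5 members, the 7 late-start sequences with added Ts had 0 perfect matches in GRCm39. The miR-27b-3p set was noticed in the data and the difference was not tested. An example starts at base 2 and carries 2 added Ts, in capitals.
miR-27b-3p from base 2: tcacagtggctaagttctgcTT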
